A study of Mus musculus with 24 samples.

Results

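The miRNAs described here are 4 leukocyte miRNAs, miR-142a, miR-223, miR-150 and miR-342, taken by name. Their members are 5 of the 1915 rows of the mature miRNA table (mmu-miR-142a-3p, mmu-miR-142a-5p, mmu-miR-223-3p, mmu-miR-150-5p and mmu-miR-342-3p) and 5 of the 1186 rows of the hairpin table (mir-142, mir-142b, mir-223, mir-150 and mir-342). Small RNA of mouse origin was sequenced from liver, primary hepatocytes, exosomes from serum and exosomes from the hepatocytes' culture medium. Each of these 4 materials came as an untreated control, after acetaminophen (APAP), and after APAP with granulocyte colony-stimulating factor (G-CSF). Serum and liver came from mice given 500 mg/kg APAP without or with 100 µg/kg G-CSF, and hepatocytes and their exosomes from cultures given 20 mM APAP without or with 1 µg/ml G-CSF. Strain, age, sampling time and the number of animals or cultures behind a sample are not stated in the labels. The labels list 24 libraries, 1 on the Ion Torrent PGM and 1 on the Ion Torrent Proton for each of the 12 conditions, and the tables hold 1 joined column per condition. There are therefore no replicates of a condition, and the interval of a difference between 2 columns covers the counting error only.

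A miRNA is cut from a hairpin precursor and its mature strand guides Argonaute proteins to mRNAs that pair with its seed, bases 2 to 8. miR-142 is made in nearly all blood cell lineages and is commonly used as a marker of haematopoietic cells. miR-223 is the typical miRNA of neutrophils and other myeloid cells, miR-150 of mature lymphocytes, and miR-342, carried in an intron of Evl, is abundant in lymphocytes but is also made elsewhere. APAP at high dose kills hepatocytes, after which neutrophils and monocytes enter the liver, and G-CSF drives the production and release of neutrophils. In a piece of tissue, more cells of a type and more RNA per cell cannot be told apart.

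The mature sequences are shown because their seeds set the members apart. Capitals mark the seed, and each is read 5′ to 3′ from RefSeq, where 4 of the 5 mature members matched (build GRCm38.p6).
miR-142a-3p: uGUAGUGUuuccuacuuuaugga
miR-142a-5p: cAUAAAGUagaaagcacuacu
miR-223-3p: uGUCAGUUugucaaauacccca
miR-342-3p: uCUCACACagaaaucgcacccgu
No 2 of these share a seed, and none of the 1679 mature entries of the RefSeq table other than the member itself carries one of these seeds. miR-142a-3p lies at chr11:87756903-87756925 and miR-142a-5p at chr11:87756867-87756887, both on the plus strand in an intron of the long non-coding gene Mir142hg. miR-223-3p lies at chrX:96242884-96242905 on the plus strand, in an exon of the non-coding gene F630028O10Rik, and miR-342-3p at chr12:108658680-108658702 on the plus strand in an intron of Evl. The mir-150 hairpin lies at chr7:45121757-45121821 on the plus strand and overlaps no other annotated gene. Positions within genes follow GENCODE on GRCm38.

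The mir-142 locus holds a second hairpin, mir-142b, on the opposite strand, and the pair is shown because the table counts both. Capitals mark the mature arms in the hairpins.
mir-142 hairpin: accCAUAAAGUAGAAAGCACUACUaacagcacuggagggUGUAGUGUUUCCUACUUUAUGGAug
miR-142b: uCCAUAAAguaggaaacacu
All 20 bases of miR-142b are the reverse complement of miR-142a-3p, and the whole 64-base mir-142 hairpin is contained, in reverse complement, in the 115-base mir-142b hairpin. miR-142b resembles miR-142a-5p in 16 of 18 aligned bases, with the substitutions A11G and G14A, counted from the 5′ end of miR-142a-5p. The labels do not say whether strand was used in the counting, so the split of reads between mir-142 and mir-142b rests on the authors' method. The mir-142b hairpin held 0 counts in control liver, 0.5 after APAP and 7.5 after APAP with G-CSF, and at most 1 count in each of the other 9 columns. Mature miR-142b was at 0 in all 12 columns. Almost all counts of the locus were thus assigned to mir-142.

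Mature totals ranged from 19695 to 49330 counts in liver and from 4450 to 26741 in hepatocytes. They were 6515, 436 and 692 in serum exosomes in the order control, APAP and APAP with G-CSF, and 335 to 47 in hepatocyte exosomes. Of the liver columns, the APAP column stood apart: its hairpin total was 5.65 times its mature total, against 26.5 in control and 25.1 after APAP with G-CSF. Liver and hepatocytes carried the hepatocyte miRNAs of the marker list (miR-122, miR-192 and miR-194) at 14.8% to 42.1% and 13.9% to 26.5% of mature counts, with 1 of the 4 listed arms at 0 in the hepatocytes given APAP with G-CSF. In hepatocyte exosomes 3, 4 and 3 of those 4 arms were at 0 in control, APAP and APAP with G-CSF. For both treated serum columns, the sample titles and column names give the opposite G-CSF assignment from the treatment field, and the treatment field is followed here.

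The members were found mainly in liver and in the serum exosome control. In the mature table they made up 0.898% of the control liver column, 0.820% after APAP and 0.821% after APAP with G-CSF, and in hepatocytes 0.0262%, 0.0375% and 0.0449% in the same order. The 5 members together averaged 0.846% ± 0.0448 (SD, n = 3 columns) of liver mature counts and 0.0362% ± 0.00945 (SD, n = 3 columns) of hepatocyte counts, with each liver column above each hepatocyte column. An exact two-sided permutation test over columns gave p = 0.1, the smallest that 3 against 3 allows. The hairpins gave 1.29% ± 0.232 (SD, n = 3 columns) in liver and 0.0562% ± 0.0298 (SD, n = 3 columns) in hepatocytes, again with no overlap and an exact permutation p = 0.1. The columns of a material in these tests are its 3 treatments, not repeats of one.

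miR-142a-3p, the haematopoietic marker, held 15, 53 and 13 counts in control, APAP and APAP with G-CSF liver, or 0.0304%, 0.269% and 0.0297% of the column. The APAP column was the high one and the other liver columns lay within each other's 95% Wilson intervals. All 3 hepatocyte columns held 0 counts. Their 95% Wilson upper limits were 0.0144% in control and 0.0720% and 0.0863% in the treated columns, counting error only. The serum exosome control held 8 counts, 0.123% of that column (95% Wilson interval 0.0622% to 0.242%), which among liver columns overlapped only the interval of APAP liver. miR-142a-5p, the other arm, was rare, with 2, 5 and 0 counts in the liver columns and 0 in the other 9. The mir-142 hairpin, counted far more often, was likewise highest in APAP liver, with 516, 273 and 855 counts in the 3 columns, or 0.0394%, 0.246% and 0.0780%. In hepatocytes it held 38, 11.5 and 5 counts (0.00453%, 0.00640% and 0.00359%), and 411 (0.227%) in the serum exosome control.

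miR-223-3p, the myeloid miRNA, held 29, 50.5 and 141.75 counts in the same liver columns, or 0.0588%, 0.256% and 0.324%. Both treated livers were high and control liver was low, with no overlap of their intervals. Hepatocytes held 1, 0 and 1 counts, and the serum exosome control held 4 (0.0614%), inside the interval of control liver. The mir-223 hairpin held 1169, 544 and 4771 counts in liver (0.0894%, 0.489% and 0.435%), 34, 17 and 14 in hepatocytes and 140 in the serum exosome control (0.0772%). Treated liver stood highest, then control liver and serum exosomes with overlapping intervals, then hepatocytes at 0.00405% to 0.0100%. The other arm, miR-223-5p, held 1 count in APAP liver, 1 in the hepatocyte exosome control and 0 elsewhere.

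miR-150-5p, the lymphocyte miRNA, was the steadiest member. It held 41, 18 and 46 counts in the liver columns, or 0.0831%, 0.0914% and 0.105%, and the 3 intervals overlapped. It was at 0 in all 3 hepatocyte columns, and held 2 counts in the serum exosome control. The mir-150 hairpin held 1287, 114 and 1237 counts in liver (0.0984%, 0.102% and 0.113%), against 2, 1 and 2 in hepatocytes and 19.5 in the serum exosome control (0.0108%). The liver shares of this hairpin were thus within a narrow band, above the hepatocyte columns and the serum exosome control. No count was assigned to the other arms miR-150-3p and miR-342-5p in any of the 12 columns.

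miR-342-3p was the most abundant member in control liver and the only one that was highest there. It held 356, 35 and 158 counts in the liver columns, or 0.722%, 0.178% and 0.362%, and the control interval lay clear of both treated columns. In hepatocytes it held 6, 2 and 1 counts, and in the serum exosome control 0, with a 95% Wilson upper limit of 0.0589%. The mir-342 hairpin held 17205, 281 and 6646 counts in liver (1.32%, 0.252% and 0.606%), in the same order as the mature arm. In hepatocytes it held 204, 131 and 42 counts (0.0243%, 0.0729% and 0.0301%), the highest level of any member hairpin in those cells, and 36 in the serum exosome control (0.0199%).

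**Figure D1:**
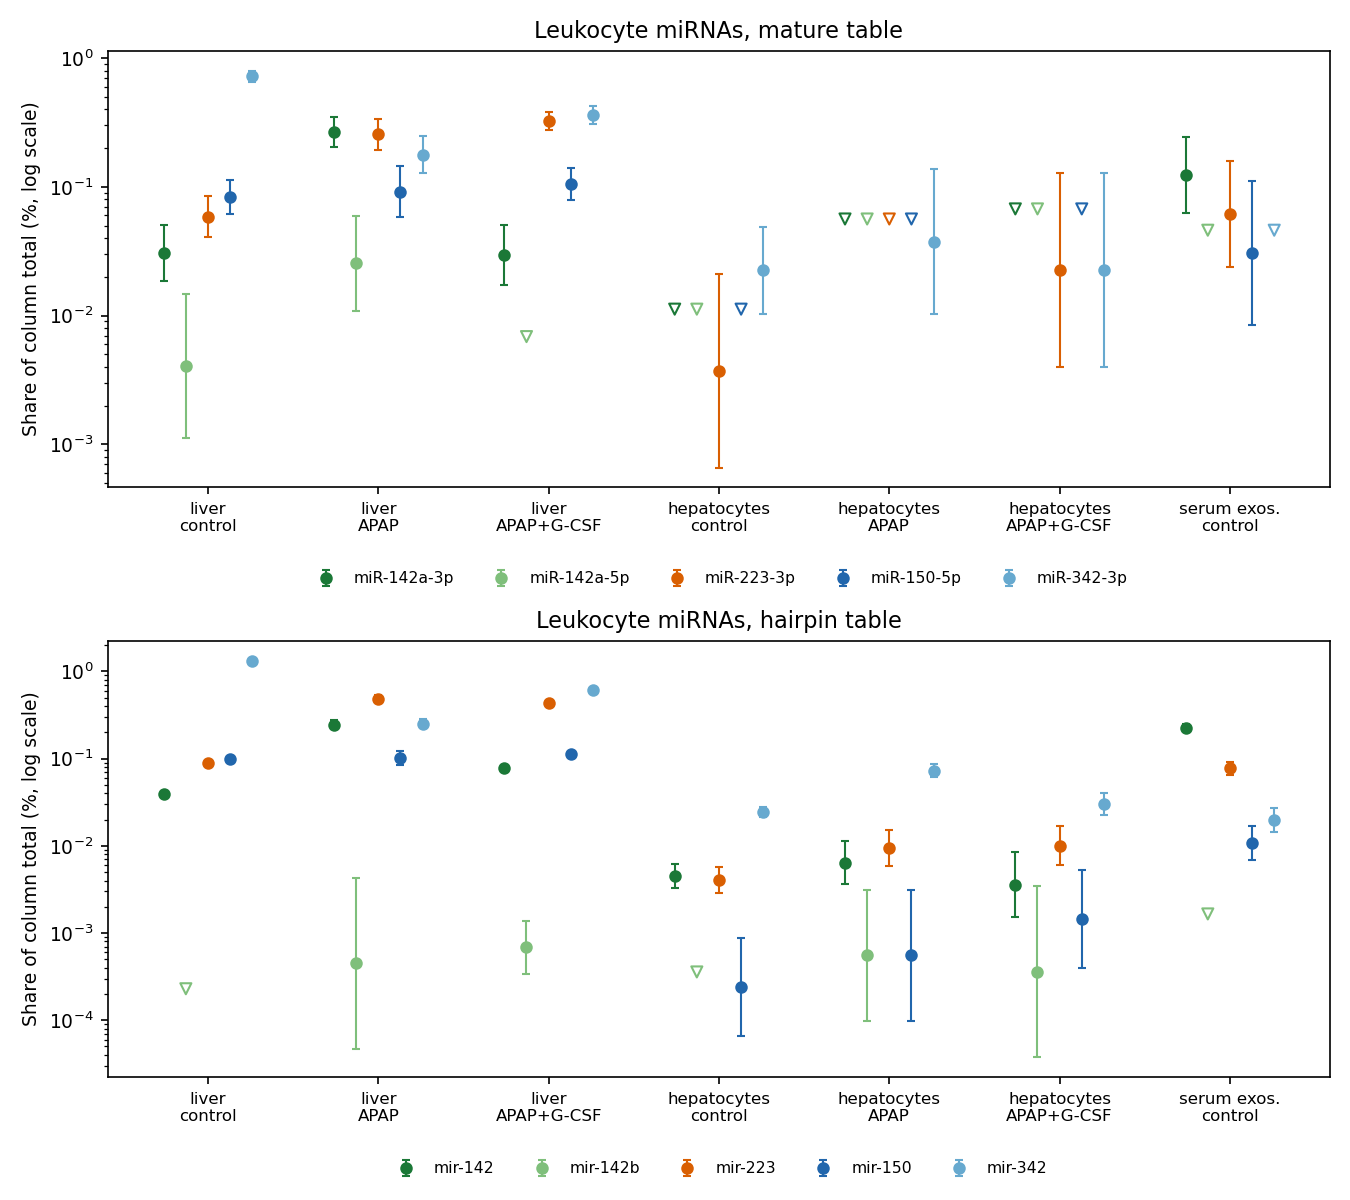
Share of the column total (percent, log axis) of each mature member (top) and member hairpin (bottom) in the liver, hepatocyte and control serum exosome columns; points are 1 column each, bars are 95% Wilson intervals, and open triangles mark the share that 3 counts would make where the count was 0. miR-342-3p led in control liver at 0.722%, miR-142a-3p peaked in APAP liver at 0.269%, and miR-150-5p stayed between 0.0831% and 0.105% in liver.

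Liver was then compared between treatments, miRNA by miRNA. Counts were scaled by TMM, and a miRNA was called when it had at least 10 counts in 1 of the 2 columns, a ratio of at least 2-fold and an exact 95% interval that excluded equality. Since counts alone set the interval, a call compares 2 columns and not 2 treatments.

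With APAP, miR-142a-3p and miR-223-3p were higher than in control liver, miR-342-3p was lower and miR-150-5p was not called. miR-142a-3p was 9.89-fold higher (95% exact interval 5.49 to 18.9) and miR-223-3p 4.87-fold higher (3.06 to 8.05). miR-342-3p was 3.63-fold lower (2.56 to 5.30). The ratio of miR-150-5p was 1.23 toward APAP, with an interval of 0.665 to 2.19 that spans equality, and its hairpin lay on the other side of 1. Thus 3 of the 4 members with enough counts were called, in a comparison where 50.6% of all 160 measured mature miRNAs were called, so a call is common here. The median log2 ratio of all 160 was -0.25, against 3.31 for miR-142a-3p, 2.29 for miR-223-3p and -1.86 for miR-342-3p.

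The hairpins gave the same pattern. mir-142 was 5.42-fold higher with APAP (4.65 to 6.27), mir-223 was 4.75-fold higher (4.29 to 5.27) and mir-342 was 5.99-fold lower (5.33 to 6.77). mir-150 was not called, at 1.10 toward control (0.912 to 1.35), a direction that turned with column totals as the scaling. Of the 432 measured hairpins 36.3% were called, and 3 of the 4 measured member hairpins were. The mature and hairpin tables come from the same libraries and do not stand for repeats of each other.

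With G-CSF added to APAP, miR-142a was lower than with APAP alone and miR-223 was not called. miR-142a-3p was 11.2-fold lower with G-CSF than with APAP alone (6.01 to 22.3), the 1 mature member called, where 30.2% of the 162 measured mature miRNAs were called. For miR-223-3p the ratio was 1.02 (0.733 to 1.43), and its side of 1 changed with the scaling. miR-342-3p was 1.65-fold higher (1.14 to 2.45), short of the 2-fold of a call, which it reached with column totals as the scaling. The ratio of miR-150-5p was 1.07 toward APAP alone (0.585 to 1.88) and also changed side with the scaling.

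Among hairpins, where 31.7% of 379 were called, mir-142 was 2.94-fold lower with G-CSF than with APAP alone (2.55 to 3.37) and mir-342 was 2.57-fold higher (2.28 to 2.91). Neither would be called at 3-fold. mir-223 lay at 1.05 toward APAP alone (0.958 to 1.15), with no call and a side that changed with the scaling, and mir-150 at 1.18 toward G-CSF (0.973 to 1.44). The 2 tables thus put miR-142a on the same side, with the larger ratio in the mature one.

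Liver given APAP with G-CSF differed from control liver in miR-223 and miR-342, a comparison that does not use the APAP column. miR-223-3p was 4.995-fold higher (3.34 to 7.74) and miR-342-3p 2.20-fold lower (1.82 to 2.68), while 28.7% of the 171 measured mature miRNAs were called. With column totals in place of TMM the log2 ratio of miR-342-3p was -0.997 and it was no longer called. miR-142a-3p lay at 1.13 toward control (0.501 to 2.58) and miR-150-5p at 1.15 toward G-CSF (0.736 to 1.79), neither called. The hairpins, with 40% of 458 called, had mir-223 4.53-fold higher (4.25 to 4.84) and mir-342 2.33-fold lower (2.27 to 2.40). mir-142 was 1.84-fold higher (1.65 to 2.06), on the other side of 1 from its mature arm, and it reached the call with no filter before TMM (log2 ratio 1.01), while mir-150 lay at 1.07 (0.987 to 1.16) without a call. The 3 liver comparisons share their columns in pairs and are not independent of each other.

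**Figure D2:**
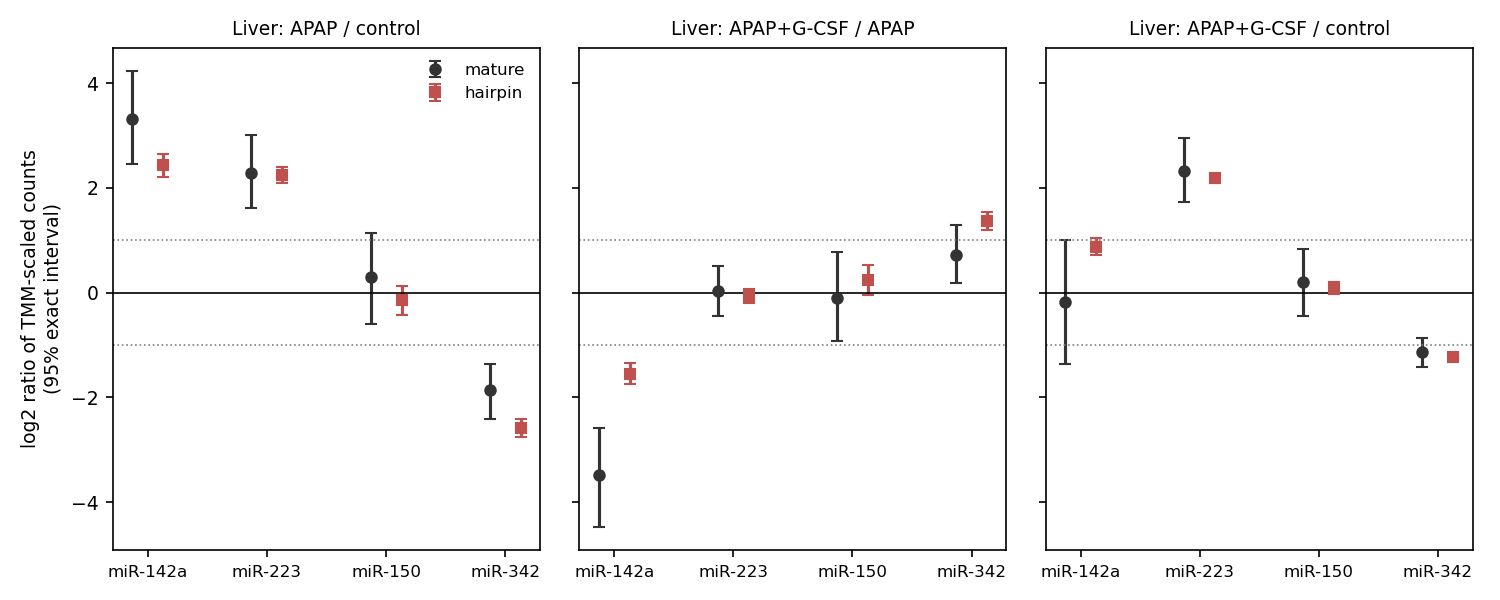
Log2 ratio of TMM-scaled counts between 2 liver columns for each member, mature (circles) and hairpin (squares), with exact 95% intervals; dotted lines mark 2-fold. miR-223 lay 2.18 to 2.32 above control in both treated livers, miR-142a was called higher in APAP against control, and the points of miR-150 stayed inside the 2-fold lines.

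The members were also compared with each other inside a column, where scaling between columns plays no part. The ratio of miR-223-3p to miR-150-5p, the myeloid to lymphoid ratio, was 0.707 in control liver (0.424 to 1.17), 2.81 with APAP (1.63 to 5.15) and 3.08 with APAP and G-CSF (2.20 to 4.40). It was 3.97 times as high with APAP as in control (exact 95% interval 1.85 to 8.78) and 4.36 times with APAP and G-CSF (2.35 to 8.13). From APAP to APAP with G-CSF it changed by 1.10 times (0.543 to 2.13), which spans equality. The hairpins gave 0.909, 4.77 and 3.86, with changes from control of 5.25 times (4.21 to 6.58) and 4.25 times (3.83 to 4.70). Both tables put miR-223 above miR-150 in the treated livers and not in control liver. This did not hold against miR-150 and miR-342 summed. The mature ratio of miR-223 to that sum was 0.0730 in control, 0.953 with APAP (0.642 to 1.44) and 0.695 with APAP and G-CSF (0.558 to 0.867). The hairpin ratio was 0.0632, 1.38 (1.21 to 1.57) and 0.605 (0.584 to 0.627), above 1 with APAP only.

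Against miR-342 the shift was larger. The ratio of miR-223-3p to miR-342-3p was 0.0815 in control liver, 1.44 with APAP and 0.897 with APAP and G-CSF, or 17.7 times (9.70 to 33.0) and 11.0 times (6.99 to 17.8) the control ratio. The hairpin ratio was 0.0679, 1.94 and 0.718, and from APAP to APAP with G-CSF it was 2.70 times lower (2.32 to 3.14). The lymphocyte miRNAs did not move as a pair, since the ratio of miR-150-5p to miR-342-3p was 0.115, 0.514 and 0.291. It was 4.47 times as high with APAP as in control (2.17 to 8.93), and 5.43 times in the hairpins (4.29 to 6.82).

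miR-142a and miR-223 parted with G-CSF. The ratio of miR-142a-3p to miR-223-3p was 0.517 in control liver, 1.05 with APAP and 0.0917 with APAP and G-CSF. Between control and APAP the change of 2.03 times had an interval of 0.914 to 4.51, and from APAP to APAP with G-CSF the ratio was 11.4 times lower (5.50 to 24.4). In the hairpins it was 0.441, 0.502 and 0.179, and 2.80 times lower with G-CSF than with APAP alone (2.37 to 3.30). Against control liver the G-CSF ratio was 5.64 times lower in the mature table (2.22 to 14.3) and 2.46 times in the hairpins (2.16 to 2.80).

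Because the summed share of the mature members stayed between 0.820% and 0.898%, the liver columns of the mature table differed mainly in which member filled it. The summed share of the member hairpins did not stay level. It was 1.54% in control (1.52% to 1.56%), 1.09% with APAP (1.03% to 1.15%) and 1.23% with APAP and G-CSF (1.21% to 1.25%). In the mature table the make-up was as follows. miR-342-3p made up 80.4% of the members' counts in control liver, 21.7% with APAP and 44.0% with APAP and G-CSF. miR-223-3p made up 6.55%, 31.3% and 39.5%, and miR-142a-3p 3.39%, 32.8% and 3.62%. miR-150-5p stayed at 9.26%, 11.1% and 12.8%. The serum exosome control had another make-up, with mir-142 at 67.8% of the member hairpin counts, mir-223 at 23.1%, mir-342 at 5.94% and mir-150 at 3.22%.

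**Figure D3:**
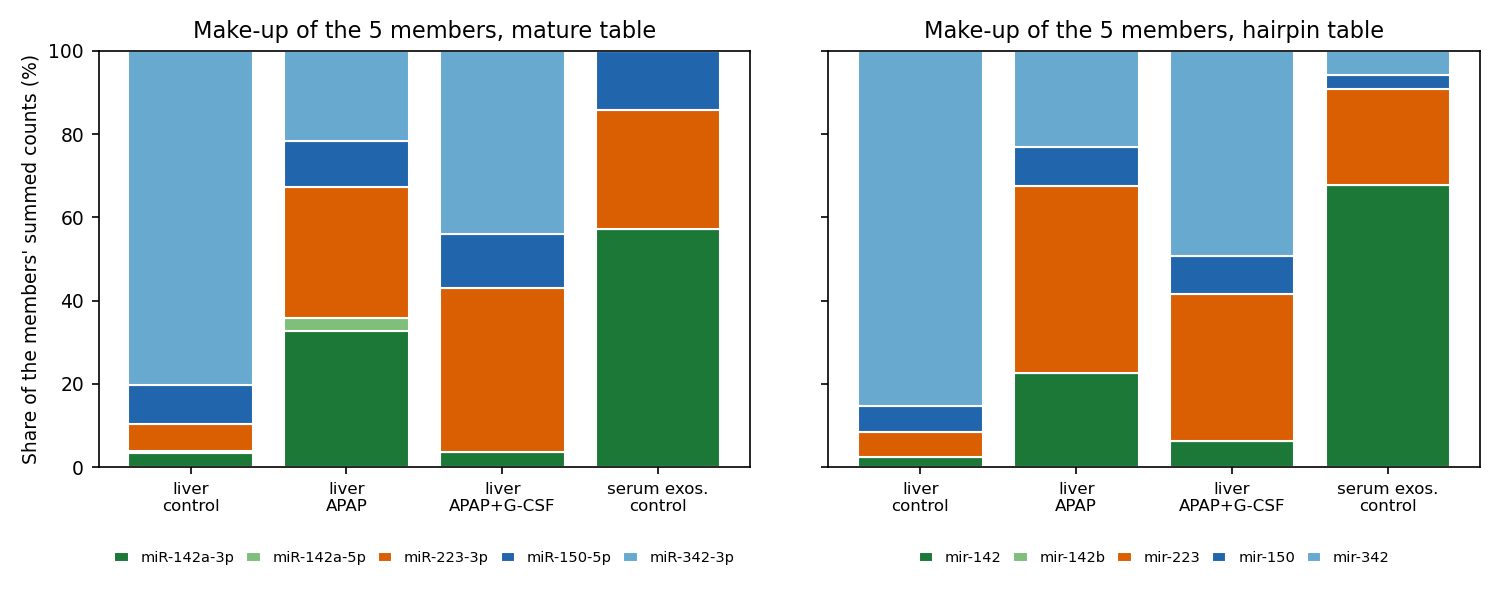
Share of the members' summed counts (percent) taken by each member in the 3 liver columns and the control serum exosome column, mature table on the left and hairpin table on the right. miR-342-3p fills 80.4% of the control liver bar and 21.7% of the APAP bar, and mir-142 fills 67.8% of the serum exosome hairpin bar.

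Other cell type markers moved in the same columns. The erythroid list (miR-451a, both arms of miR-144 and the 2 copies of miR-486-5p, which hold equal counts, all red cell miRNAs) made up 0.209% of control liver, 6.53% with APAP and 1.13% with APAP and G-CSF. All 5 of its arms were called higher with APAP, as were 23.1% of the measured mature miRNAs, and miR-451a stood at 37.4-fold (30.1 to 47.1). All 5 were called lower with G-CSF than with APAP alone, as were 13% of the measured mature miRNAs, with miR-451a at 6.96-fold (6.24 to 7.77). No erythroid marker was at 0 in a liver column. The miR-142a-3p pattern thus ran alongside that of red cell miRNAs, and their part in the result was not tested. Per count of miR-451a, miR-142a-3p was 0.172 in control liver, 0.0456 with APAP and 0.0284 with APAP and G-CSF, and miR-223-3p was 0.333, 0.0434 and 0.309. From APAP to APAP with G-CSF the ratio of miR-142a-3p to miR-451a lay at 1.61 toward APAP alone, with an interval of 0.853 to 3.24 that spans equality. For the hairpins, mir-142 per count of mir-451a was 0.291, 0.0509 and 0.0859, and it was 1.69 times higher with G-CSF than with APAP alone (1.47 to 1.95). In the serum exosome control the erythroid list made up 9.74%.

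The other lists in liver were described by their counts. Of the 3 hairpins of the myeloid list, mir-223 and mir-511, the latter a hairpin of an intron of the macrophage gene Mrc1, were called higher with APAP, mir-511 at 2.72-fold (2.04 to 3.59), as were 16.9% of all measured hairpins. mir-147 held 11 counts in control, 0 with APAP and 26 with APAP and G-CSF, and gave no fold against the 0. With G-CSF added, mir-511 was 2.28-fold lower than with APAP alone (1.71 to 3.004), unlike mir-223. Of the 7 lymphoid hairpins, 5 were called lower with APAP (19.4% of all measured) and 0 higher, with a median log2 ratio of -1.56, against -0.10 over all 432 measured hairpins. These were mir-342 and 4 hairpins of the miR-181 family, known for its part in lymphocyte development, at 2.94-fold to 3.63-fold lower. The family did not fall as a whole. Its hairpin mir-181c stood at 201, 238 and 284 counts per 1000000 in control, APAP and APAP with G-CSF liver. The APAP value of mir-181c rests on 26.5 counts. The 5 hairpins called lower with APAP were all called higher with G-CSF than with APAP alone (18.5% of all measured). There the list median was 1.08 and that of all 379 hairpins 0.16. The 4 miR-181 hairpins make nearly identical mature sequences between which reads may have been split, and their mature arms miR-181a-5p and miR-181b-5p, at 9.83 counts each in APAP liver, were not called.

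Among miRNAs of leukocyte activation, miR-21a-5p, which many injured tissues also raise, was 4.76-fold higher with APAP than in control (4.10 to 5.51), the 1 called of 5 measured. The hepatocyte list made up 27.3%, 42.1% and 14.8% of the mature counts of the 3 liver columns, and the endothelial list (both arms of miR-126a) 2.89%, 2.49% and 2.03%. Of the 2 endothelial arms, 1 was called higher with APAP and 1 lower with G-CSF than with APAP alone. Of the 6 mature arms of the mesenchymal and stellate list, 3 were called higher and 1 lower with APAP. With G-CSF against APAP alone, 3 were called lower and 0 higher. Of all measured mature miRNAs, 50.6% and 30.2% were called in these 2 comparisons. The biliary and epithelial list made up 1.73%, 0.396% and 1.67% of mature counts and 3.26%, 0.828% and 3.13% of hairpin counts, lowest with APAP as miR-342 was, and 0 of its 6 mature arms was at 0 in a liver column. Most of it was miR-31-5p, with 832, 56 and 706 counts in the 3 liver columns. miR-31-5p was 5.31-fold lower with APAP than in control (4.05 to 7.09) and 4.602-fold higher with G-CSF than with APAP alone (3.50 to 6.16). Of the list's 6 hairpins mir-31 was called lower with APAP, and mir-200a, mir-141 and mir-429 were called higher. The part of these other cell types in the members' results was not tested.

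**Figure D4:**
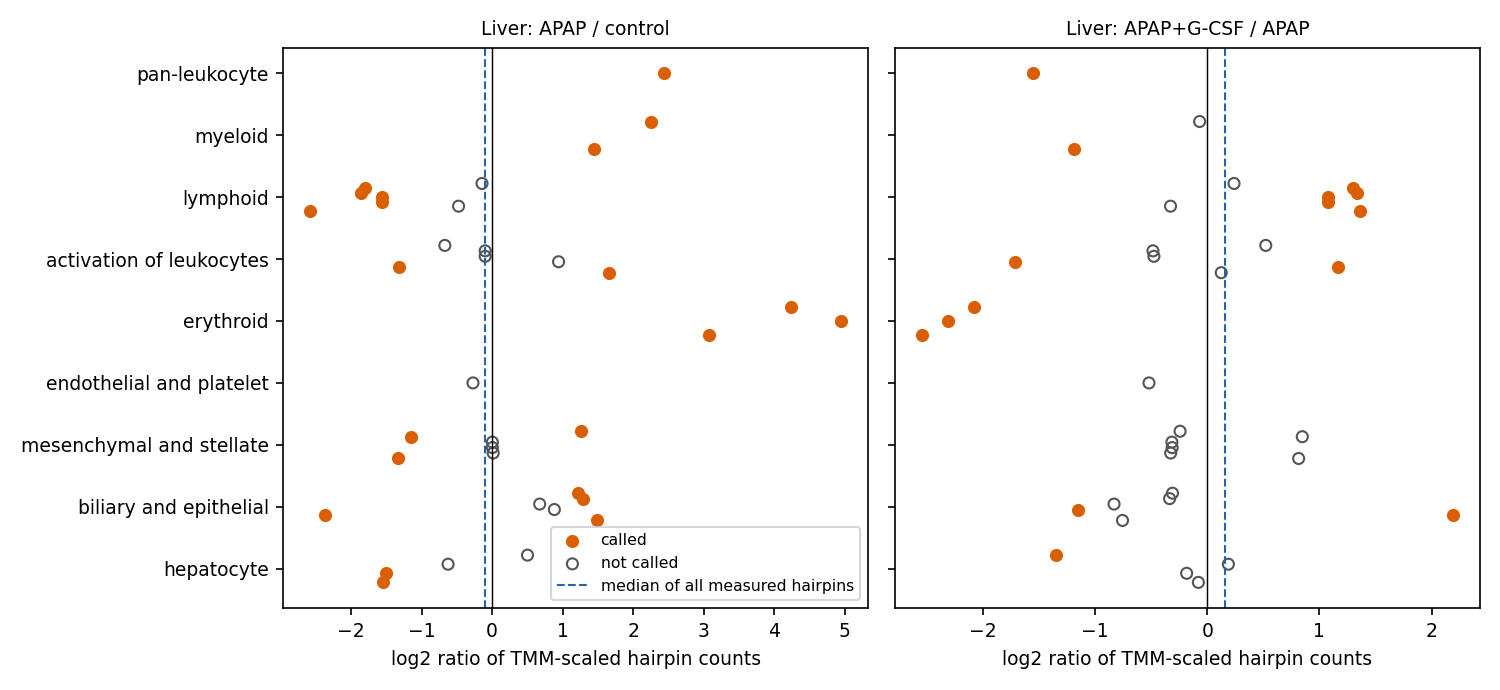
Log2 ratio of TMM-scaled hairpin counts in liver for each hairpin of the 9 marker lists that gave a fold, APAP against control (left) and APAP with G-CSF against APAP (right); filled points were called, and the dashed line is the median of all measured hairpins. The 3 erythroid hairpins lie far to the right on the left panel and to the left on the right panel, while 5 of the 7 lymphoid hairpins do the reverse.

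Liver against hepatocytes was the one comparison with 3 columns on each side, and it was fitted over all miRNAs with edgeR's quasi-likelihood test, the treatments standing as columns. Of the mature members, miR-223-3p, miR-342-3p and miR-150-5p reached the fit's low-count minimum in their 3 liver columns and in 0 hepatocyte columns. They entered the fit through liver, so no fitted value is given and the number called is not read as a result. With counts pooled over columns, miR-223-3p was 35.8-fold higher in liver (exact 95% interval 9.79 to 297), from 2 hepatocyte counts. For miR-342-3p the pooled ratio was 19.8-fold (10.3 to 43.5), from 9 hepatocyte counts. miR-150-5p and miR-142a-3p were at 0 in all 3 hepatocyte columns, and a floor of 3 counts stood in for the pooled 0. Against that floor miR-150-5p was 11.3-fold higher in liver, with an exact 95% lower limit of 9.06. miR-142a-3p, which reached the minimum in 1 liver column and did not enter the fit, was 8.75-fold higher (lower limit 6.95). With no filter miR-142a-3p entered the fit, also against hepatocyte counts of 0, and its fitted value is likewise not given. In the filtered fit 19.3% of the 109 mature miRNAs were called, and 9.17% of the 109 were called higher in liver.

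The hairpins mir-223, mir-142 and mir-342, which reached the low-count minimum in all 6 columns, were called higher in liver by edgeR. In that fit 12.8% of the 296 hairpins were called, and 10.5% of the 296 were called higher in liver. On the log2 scale mir-223 lay at 4.598 (SE 0.881, adjusted p = 0.0126), mir-142 at 3.65 (SE 0.885, adjusted p = 0.0348) and mir-342 at 3.35 (SE 0.880, adjusted p = 0.0426). mir-150 reached the minimum in 0 hepatocyte columns and entered the fit through its liver columns, so its call is not read as a result. With counts pooled over columns it was 243-fold higher in liver (104 to 748), from 5 hepatocyte counts. Calls of the other 3 hairpins ended when 1 column was left out. Without the hepatocytes given APAP with G-CSF, or without liver given APAP with G-CSF, edgeR called none of the 3. Without APAP hepatocytes it called only mir-223 of the 3 (adjusted p = 0.0368). Without APAP liver it did not call mir-142 (adjusted p = 0.0643). Without control liver, edgeR did not call mir-342 (log2 2.54, adjusted p = 0.147). With treatment as a block in edgeR, mir-142 (adjusted p = 0.0666) and mir-342 (adjusted p = 0.102) were not called. The hepatocytes held 4, 4 and 5 of the 5 erythroid arms at 0 in control, APAP and APAP with G-CSF, and both miR-142a arms at 0 in each.

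Within hepatocytes no mature member had 10 counts in a column, so none could be called. mir-342 was the hairpin with most counts. It was 2.45-fold higher with APAP than in control (1.956 to 3.07) and 2.22-fold lower with G-CSF than with APAP alone (1.56 to 3.22), where 61.9% and 22.2% of measured hairpins were called. mir-223 was 2.21-fold higher with APAP and G-CSF than in control (1.10 to 4.23), from 14 against 34 counts, where 59.7% of 290 hairpins were called. Without the low-count filter before TMM, the log2 ratios of mir-342 with APAP and of mir-223 with APAP and G-CSF were 0.33 and 0.18, and neither was called. mir-142 was not called in any of the 3 hepatocyte comparisons after that filter, at 1.16 toward APAP against control (0.574 to 2.36). With APAP and G-CSF against control its log2 ratio was -0.50, and with no filter it was -1.47 and called. The hairpin mir-150 had at most 2 counts.

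Outside the serum control, no exosome column held more than 2 counts of any member. All 5 mature members were at 0 in the treated serum columns, whose totals were 436 and 692 counts. The 95% Wilson upper limits of these zeros were 0.873% and 0.552%. Both lie above the 0.123% of miR-142a-3p in the control column, so that no loss was detectable at this depth. The hairpin totals of the serum columns were 181243, 460 and 4026 in control, APAP and APAP with G-CSF. With APAP a count of 0 had a 95% Wilson upper limit of 0.828%. That lies above the 0.227% of mir-142 in control, so no loss of a member hairpin was detectable with APAP. In hairpin counts, mir-142 held 411 in the serum control, 0 with APAP and 2 with APAP and G-CSF. Against control this was 4.56-fold lower with APAP and G-CSF (1.26 to 37.8), the 1 member called there, where 44.2% of 242 hairpins were called; with both treated columns exchanged as the titles have them, the call moves to APAP. mir-223 held 140, 0 and 0, mir-342 held 36, 0 and 1, and mir-150 held 19.5, 0 and 0.5, none of them called. Within the serum control, mir-223 stood 7.18 to 1 to mir-150 (4.36 to 11.8) and mir-142 2.94 to 1 to mir-223 (2.42 to 3.58), against 0.909 and 0.441 in control liver. Hepatocyte exosomes held none of the mature members, with totals of 335, 91 and 47 and 95% Wilson upper limits of 1.13%, 4.05% and 7.56%.

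The hairpins whose levels ran most like each member were found among 214 hairpins over the 6 liver and hepatocyte columns, by Pearson's r of log2(CPM + 10), as a description. mir-142 ran closest to mir-451a (r = 0.996), mir-451b (0.996) and mir-3107 (0.995). The entries mir-451a and mir-451b held nearly equal counts in all 6 columns, 5369 and 5254 in APAP liver, so they are not separate neighbours. mir-223 ran closest to mir-451b (0.985), mir-451a (0.985) and mir-143 (0.984), mir-150 to mir-365-2 (0.994), mir-365-1 (0.994) and mir-181c (0.994), and mir-342 to let-7b (0.983), mir-181a-1 (0.977) and mir-187 (0.975). By Spearman's rho mir-142 ran closest to mir-141, mir-200a and mir-802 (rho = 1 each), none of the 3 that Pearson's r gave. Between members r ran from 0.761 for mir-142 with mir-342 to 0.966 for mir-142 with mir-223. All of these values share the same 6 columns and the step between liver and hepatocytes, which raises r for any hairpin that is higher in liver.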

How the data were processed

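Per the file headers, the deposited tables give estimated counts of mature miRNAs and of hairpins, unscaled; the authors had joined the PGM and Proton libraries of a condition, since the 12 columns carry no instrument. Per the labels' protocols, a Norgen kit gave the total RNA, and the Ion Total RNA-Seq Kit v2 the libraries. Aligner, annotation and genome build: not given in the sources used here. Members and marker lists were chosen with earlier results of these data known, and ratios to miR-451a were added after values had been seen. Named miRNAs were all members, up to 4 called miRNAs per list by fold, and the 3 nearest hairpins per member.

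Scaling used TMM (edgeR 4.0.16, R 4.3.3) after a filter of 10 counts in at least 1 column of the material, and column totals in exosomes. Ratios carry exact conditional (Clopper-Pearson) 95% intervals, as do ratios within a column. A change of such a ratio is the quotient of the ratios, with the exact 95% interval of the conditional odds ratio. Shares carry Wilson intervals. Intervals and floors cover counting error only. A count of 0 was set to a floor of 3 counts for a fold, which is not a 95% limit. Counts were rounded for the edgeR quasi-likelihood test of liver against hepatocytes, with Benjamini-Hochberg adjustment over all miRNAs tested. DESeq2 1.42.0, other scalings, filters and thresholds, and leaving out each column were alternatives. Scripts were tested on simulated data.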

Additional observations from a re-analysis of the deposited data

Results flagged for a closer look

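The mir-342 hairpin went opposite ways in liver and in hepatocytes. With APAP against control its log2 ratio was -2.58 in liver and 1.30 in hepatocytes, a gap of -3.88. With APAP and G-CSF against APAP it was 1.36 in liver and -1.15 in hepatocytes, a gap of 2.51. Each value is that of 1 pair of columns, and the difference between the materials was not tested. The hepatocyte ratios rest on 204, 131 and 42 counts in control, APAP and APAP with G-CSF, and the APAP liver value on 281.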

How the results depend on the processing

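No paired analysis was possible because the labels and columns carry no replicate numbers; a fit with treatment as a block matched columns of the same treatment, not replicates. In liver, miR-142a-3p, miR-223-3p and miR-342-3p kept direction and call for APAP against control in all 7 alternatives, with log2 ratios of 2.44 to 3.54, 2.05 to 2.52 and -2.58 to -1.63. Depth limits the exosome columns most: outside the serum control, 3 counts make 0.434% to 6.38% of a mature total. Where a value changed, the cause was not tested unless the alternative itself sets it (a stricter fold).

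Requiring 3-fold reduced the calls by construction. In liver, APAP against control went from 81 to 45 mature miRNAs and from 157 to 100 hairpins, APAP with G-CSF against APAP from 49 to 26 and from 120 to 60, and APAP with G-CSF against control from 49 to 25 and from 183 to 107. In hepatocytes, APAP with G-CSF against APAP went from 13 to 6 mature miRNAs and from 51 to 30 hairpins. Members called at 3-fold were 0 hairpins for APAP with G-CSF against APAP in liver, 1 mature and 1 hairpin for APAP with G-CSF against control, and 0 hairpins in each hepatocyte comparison.

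With column totals, 2 mature members were called in liver for APAP with G-CSF against APAP and 1 for APAP with G-CSF against control. In hepatocytes, APAP against control called 2 member hairpins with DESeq2 size factors, 2 with column totals and 0 with no filter before TMM. Exchanging the treated serum columns gave 1 member hairpin called for APAP against control and 0 for APAP with G-CSF against control.

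Ratios near 1 changed sign. For APAP with G-CSF against APAP in liver, miR-223-3p was -0.16 with DESeq2 size factors, -0.18 without 3 abundant miRNAs and -0.069 in hairpin counts. In the same comparison miR-150-5p was 0.20 with column totals, 0.062 with no filter and 0.24 in hairpin counts, and mir-223 was 0.0055 with no filter. mir-150 was 0.058 with column totals for APAP against control, where miR-150-5p was -0.14 in hairpin counts. miR-142a-3p was 0.88 in hairpin counts for APAP with G-CSF against control. In hepatocytes with no filter, mir-142 was -0.76 and mir-223 -0.032 for APAP against control, and mir-342 was -0.82 for APAP with G-CSF against control.

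Column totals moved the median log2 ratio of all mature liver miRNAs by -0.16, 0.30 and 0.14 in the 3 comparisons, and no filter moved that of hepatocyte hairpins by -0.97 for APAP and for APAP with G-CSF against control. The split of higher to lower mature calls in liver was 37 to 44 for APAP against control, 27 to 50 with column totals and 25 to 54 with no filter. For APAP with G-CSF against APAP it was 28 to 21, 24 to 30 with DESeq2 size factors, 44 to 15 with column totals and 23 to 30 without 3 abundant miRNAs. For APAP with G-CSF against control it was 27 to 22, and 29 to 15 with column totals.

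For liver against hepatocytes, edgeR called 21 mature miRNAs and 38 hairpins, DESeq2 34 and 84, and edgeR with treatment as a block 13 and 17, of which 2 were member hairpins. Column totals as library sizes gave 73 hairpins and no filter 64. Leaving out 1 column gave 5 to 39 mature miRNAs and 8 to 121 hairpins, with 0 to 2 mature members and 1 to 4 member hairpins. These member counts include miR-223-3p, miR-342-3p, miR-150-5p and mir-150, which reached the low-count minimum of the full fit in 0 hepatocyte columns. The member counts are not read as a result.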
